A study of Mus musculus with 6 samples.

Results

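The interferon regulatory factors are a family of transcription factors, and 8 members were described here, Irf1, Irf2, Irf3, Irf4, Irf5, Irf7, Irf8 and Irf9, taken by gene symbol from a table of 24559 genes. Each of these proteins holds a DNA-binding domain that recognises elements built around GAAA. Irf4 is switched on by the antigen receptor in lymphocytes, more so the stronger the receptor signal, and it is needed for the expansion of CD8+ T cells. Irf3 and Irf7 switch on the type I interferon genes, Irf9 joins STAT proteins in the complex through which interferons act on their targets, and Irf1 is itself a target of interferon-gamma.

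The samples were CD8+ T cells, lymphocytes that kill infected and tumour cells, from the spleens of C57 BL/6 wt mice, which the labels describe as primary culture cells. One group of 3 libraries had received L-4F, a mimetic peptide of apolipoprotein A1 (the chief protein of high-density lipoprotein particles), and the other group, also of 3, had received ABCT Buffer. The series asks how apolipoprotein A1 affects the immune functions of these cells. The sources used here do not give the dose, the length of treatment, the age of the mice or how the cells were stimulated. Nothing in the labels ties a library to its own mouse or culture. The p-values therefore measure the spread among these 6 samples only, and that spread may be technical.

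The libraries held 25073292 to 31332003 reads over all genes. Values below are normalized counts, the read count of a gene divided by a factor for its library. A gene was called changed at an adjusted p under 0.05 in limma, fitted over 14922 genes with enough reads, and 38.2% of those genes were called. By direction, 18.4% of all tested genes were higher with L-4F and 19.7% were lower. When the libraries were centred on their medians instead, 37.3% of the called genes were higher, against 48.2% with the deposited scaling, and the median change of all genes moved from -0.00 to -0.04 on the log2 scale. The change also went with transcript length. The median log2 fold change was 0.18 over the 25% of tested genes with the shortest transcripts and -0.18 over the 25% with the longest. For that reason values after a smooth trend in transcript length was removed from each library are given beside the results. The part of transcript length in any single result was not tested.

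Of the 8 members described, all of which passed the filter on low values, 3 rose (Irf1, Irf3 and Irf7), 2 fell (Irf4 and Irf8) and 3 did not pass the test (Irf2, Irf5 and Irf9). Beside this, 38.2% of all tested genes were called, 18.4% higher and 19.7% lower. The median change of the 8 was 0.03 on the log2 scale, beside 0.00 for all tested genes. The libraries of the groups did not overlap for 6 members, and this was so for 47.6% of all tested genes. With 8 members these counts are a description only. With the trend in transcript length removed, 4 members were called, Irf7 and Irf9 higher and Irf4 and Irf8 lower, beside 26.4% of all genes.

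The promoters of 8 members were read from RefSeq on GRCm38.p6, in 11 windows from 250 bases before a transcription start to 50 bases after it. They were searched for 5 short motifs that relate to the inputs of the family. The GAS element, TTCNNNGAA, which STAT dimers bind and which reads the same on both strands, was in the windows of Irf1, Irf2 and Irf8, which is 3 of 11, and in 8.30% of all 32851 promoters. The 100 bases around these matches are shown, with the matching letters in capitals, because the 3 genes behaved differently with L-4F (Irf1 rose, Irf8 fell and Irf2 did not pass the test). The 100 bases just before the start of Irf4, the member with the largest change, are shown beside them and held no match.
Irf1, chr11:53769878-53769977, plus strand: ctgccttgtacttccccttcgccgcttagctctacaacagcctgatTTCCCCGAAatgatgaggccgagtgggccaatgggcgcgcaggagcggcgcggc
Irf2, chr8:46739495-46739594, plus strand: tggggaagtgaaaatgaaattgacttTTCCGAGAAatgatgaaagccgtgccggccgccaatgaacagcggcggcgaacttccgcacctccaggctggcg
Irf8, chr8:120736141-120736240, plus strand: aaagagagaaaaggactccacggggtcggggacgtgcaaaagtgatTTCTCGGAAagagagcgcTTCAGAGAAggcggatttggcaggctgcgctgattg
Irf4, chr13:30749133-30749232, plus strand: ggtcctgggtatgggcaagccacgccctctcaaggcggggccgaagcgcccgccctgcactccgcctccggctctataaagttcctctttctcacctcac

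The match in Irf1 began at position -90 from the RefSeq start, that in Irf2 at -224, and those in Irf8 at -171 and -153. The core of the interferon-stimulated response element, GAAANNGAA on either strand, to which the interferon-linked family members bind, was in 1 of the 11 windows, that of Irf2 at -241, and in 8.56% of all promoters. It lies upstream of the GAS letters of Irf2 and does not overlap them. An NFAT core, TGGAAA on either strand, was in 2 of the 11 windows, those of Irf1 and Irf2, and in 21.4% of all promoters. Neither the NF-kB letters GGGANTTTC (1.11% of all promoters) nor the AP-1 letters TGANTCA (7.81%) were in any window, on either strand. These matches describe the letters of the windows only.

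Irf4, the member that reads antigen receptor strength, had the largest change of the family and fell to 0.707 of its buffer level. Its normalized count was 8628, 8681 and 8848 in the 3 buffer libraries and 6178, 6222 and 6100 in the 3 L-4F libraries. Every L-4F library lay below every buffer library, and the gap was many times the spread within either group. The means were 8719 ± 115 and 6167 ± 62.0 (SD, n = 3 each), a change of -0.50 on the log2 scale (SE 0.0251, 95% interval -0.55 to -0.45, limma adjusted p = 1.28e-12). Between 5554 and 9791 reads per library stood behind these values. In bulk samples a lower value of this kind cannot tell fewer cells that express the gene from less RNA per cell.

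The gene (ENSMUSG00000021356) lies at chr13:30749226-30766976 on the plus strand of GRCm38 in the GENCODE M21 annotation, and no other annotated gene overlaps it. Its longest transcript is 4764 nt, longer than the median of 2963 nt over the tested genes. With the length trend removed its change was -0.40 (limma adjusted p = 8.35e-11). Among all tested genes 6.43% had a lower log2 fold change than Irf4, and 8.75% did once the length trend was removed. The fall of Irf4 was thus large for the family and not rare in the table. The authors' deposited table gives the same gene a log2 fold change of -0.50 with an FDR of 5.37e-85.

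**Figure D1:**
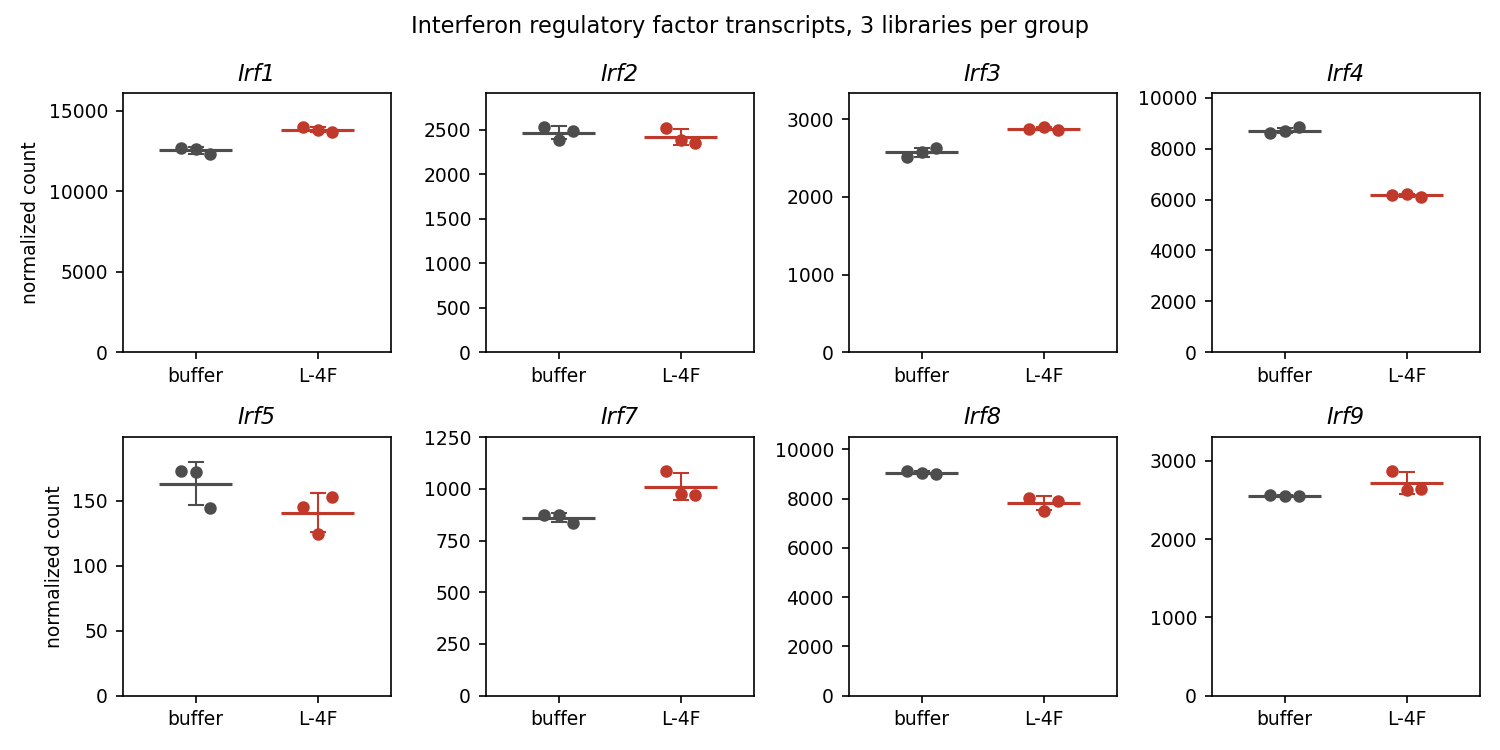
Normalized count of each family member (y axis, each panel from 0) in the 3 ABCT buffer and 3 L-4F libraries. Points are libraries, horizontal lines are means and bars are SDs. Irf4 and Irf8 lie lower in all 3 L-4F libraries, Irf1, Irf3, Irf7 and Irf9 lie higher in all 3, and Irf2 and Irf5 overlap.

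Irf8, the closest relative of Irf4, which myeloid and B cells use for their development and which activated CD8+ T cells also express, fell as well. It was at 9135, 9055 and 8994 in the buffer libraries and at 8030, 7494 and 7926 in the L-4F libraries. The groups did not overlap, and the L-4F libraries were spread more widely than the buffer libraries. The means of 9061 ± 70.4 and 7817 ± 284 (SD, n = 3 each) differed by -0.21 on the log2 scale (SE 0.0272, limma adjusted p = 1.75e-06), to 0.862 of the buffer level. Removing the trend in the longest transcript left -0.20, while removing a trend in summed exon length left -0.11 (limma adjusted p = 0.00431). The gene (ENSMUSG00000041515) spans chr8:120736358-120756694, plus strand, and shares it with the same-strand model Gm20388. No row was found for Gm20388 among the deposited values, and the part of this overlap in the Irf8 count was not tested.

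Because Irf8 also marks other cells, the markers of those cells were summed for each library. Counts of called markers are to be read beside the 38.2% of all tested genes that were called (18.4% higher, 19.7% lower). B cell markers summed to 272 to 327 normalized counts in buffer and 376 to 417 with L-4F, where 1 of 6 tested markers rose (Cd79b, from 187 ± 8.12 to 269 ± 14.1) and the defining factor Pax5 averaged 3.82 and 3.12. Monocyte and macrophage markers summed to 1465 to 1712 and 1539 to 1618, most of it Lyz2, with none of 6 called. Conventional dendritic cell markers summed to 428 to 438 and 338 to 374, with 1 of 4 called, Zbtb46, which fell from 87.5 ± 9.39 to 55.3 ± 5.74. With the length trend removed 1 B cell marker was called higher and 2 conventional dendritic cell markers lower, beside 26.4% of all genes called. No monocyte or macrophage marker was then called. The Irf8 count of 9061 in buffer was larger than each of these sums, but counts of different genes do not compare numbers of cells. The part of such cells in the fall of Irf8 was not tested.

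Other marker lists gave the background of the samples. Their counts too are to be read beside the 38.2% of all tested genes called, or 26.4% with the length trend removed. CD8 T cell markers summed to 74751 to 75289 in buffer and 85134 to 87597 with L-4F, and 5 of 6 rose (Cd8a was at 31369 ± 198 and 34094 ± 813). CD4 T cell markers summed to 516 to 572 and 454 to 483, with 1 of 2 lower. Plasmacytoid dendritic cell markers summed to 3907 to 4024 and 4237 to 4303, with 2 higher and 1 lower of 4. Most of that sum was Ccr9 (1230 in buffer) and Bst2 (2581), which is also in the list of type I interferon-stimulated genes. The defining marker Siglech was at 1.27 and 0.662. Natural killer cell markers summed to 6761 to 7120 and 7125 to 7360 (2 higher of 7). Most of that sum was Eomes (6099 ± 173 in buffer), which is also listed among the genes tied to Irf4 in activated T cells. Neutrophil markers summed to 92.4 to 120 and 171 to 197 (2 higher of 3), and erythroid markers to 179 to 223 and 276 to 306 (2 higher of 3). After removal of the length trend 4 CD8 T cell markers and 2 neutrophil markers were still called higher, 1 CD4 T cell marker lower, 1 plasmacytoid dendritic cell marker each way, and no natural killer or erythroid marker was called. The table held only genes with a read in some library, so no listed row could be at 0 in all of them. The dendritic cell marker Xcr1 had no row. The part of these lists in the results that follow was not tested.

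Irf1, which interferon-gamma induces and which drives antigen presentation genes, had the highest level per kilobase of the members and rose slightly. It was at 12681, 12655 and 12297 in buffer and at 13978, 13820 and 13689 with L-4F. All L-4F libraries lay above all buffer libraries. The means of 12544 ± 215 and 13829 ± 145 (SD, n = 3 each) differed by 0.14 on the log2 scale (SE 0.0223, limma adjusted p = 2.85e-05). Once the trend in transcript length was removed the difference was 0.04 (limma adjusted p = 0.137) and the call did not hold. It held with the trend in summed exon length removed (0.12, limma adjusted p = 0.000140) and with that in protein-coding transcript length removed (0.06, limma adjusted p = 0.0391). The gene (ENSMUSG00000018899; chr11:53770014-53778374, plus strand) has a longest transcript of 2137 nt. The opposite-strand model Gm17334 that overlaps it averaged 109 and 81.5 and was not called.

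Its counterpart Irf2, which binds the same elements and often acts as a repressor, did not pass the test. Its libraries were at 2528, 2383 and 2490 in buffer and at 2517, 2379 and 2351 with L-4F, and the groups overlapped. The difference was -0.03 (95% interval -0.11 to 0.05, limma adjusted p = 0.583), and it became 0.01 with the transcript length trend removed and 0.08 with that in summed exon length removed. Irf2 (ENSMUSG00000031627) lies at chr8:46739732-46847458, plus strand. The opposite-strand models Gm31172, Gm45479 and Gm45481 overlap it and were not analysed here.

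Irf3, the factor that is activated by phosphorylation after nucleic acid sensing, rose slightly. It was at 2517, 2575 and 2636 in buffer and at 2874, 2897 and 2856 with L-4F, without overlap. The means of 2576 ± 59.9 and 2876 ± 20.6 (SD, n = 3 each) differed by 0.16 (SE 0.0347, limma adjusted p = 0.000894). The call did not hold once the trend in transcript length was removed (0.05, limma adjusted p = 0.286). It held with that in summed exon length removed (0.11, limma adjusted p = 0.0162). The gene (ENSMUSG00000003184; chr7:44997648-45002848, plus strand) has a longest transcript of 2031 nt and overlaps Bcl2l12 on the opposite strand, which differed by 0.01 and was not called.

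Irf7, which amplifies the interferon response and is itself induced by interferon, had the largest rise of the family, to 1.17 times its buffer level. It was at 872, 874 and 836 in buffer and at 1088, 974 and 972 with L-4F. The groups did not overlap, and 1 L-4F library stood above the other two. The means of 861 ± 21.3 and 1011 ± 66.5 (SD, n = 3 each) differed by 0.23 (SE 0.0588, 95% interval 0.11 to 0.35, limma adjusted p = 0.00344), and by 0.22 with the length trend removed (limma adjusted p = 0.00684). With the trend in protein-coding transcript length removed the difference was 0.16 and only just passed (limma adjusted p = 0.0472). Irf7 (ENSMUSG00000025498) is on the minus strand at chr7:141262706-141266481 and overlaps Phrf1 on the other strand, which fell from 4037 ± 171 to 3460 ± 109. The libraries were strand-specific per the labels, but the sources used here do not say whether the counting used strand.

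Irf9, the DNA-binding subunit of the complex with STAT proteins, was at 2568, 2556 and 2548 in buffer and at 2875, 2634 and 2644 with L-4F. The groups did not overlap, yet the L-4F libraries differed among themselves, and the difference of 0.09 did not pass the test (SE 0.0386, 95% interval 0.01 to 0.17, limma adjusted p = 0.0845). It passed once the trend in the longest transcript was removed (0.12, limma adjusted p = 0.0216). It did not pass with the trend in protein-coding transcript length removed (0.08, limma adjusted p = 0.136). It also passed without L-4F replicate 2 (0.11, limma adjusted p = 0.0420). The gene (ENSMUSG00000002325; chr14:55603571-55610030, plus strand) overlaps Rnf31 on the same strand, which fell by 0.11 on the log2 scale and was at -0.01 and not called with the length trend removed (limma adjusted p = 0.942). Reads could be split between them.

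Irf5, which acts below Toll-like receptors in myeloid and B cells, was weakly expressed. It was at 173, 172 and 144 in buffer and at 145, 124 and 153 with L-4F, and the groups overlapped. Its difference of -0.21 had a 95% interval of -0.49 to 0.06 (limma adjusted p = 0.224). Between 125 and 196 reads per library stood behind these values. Irf5 (ENSMUSG00000029771; chr6:29526625-29541871, plus strand) overlaps Tnpo3 on the opposite strand, which averaged 4799 and 4644 and was not called.

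**Figure D2:**
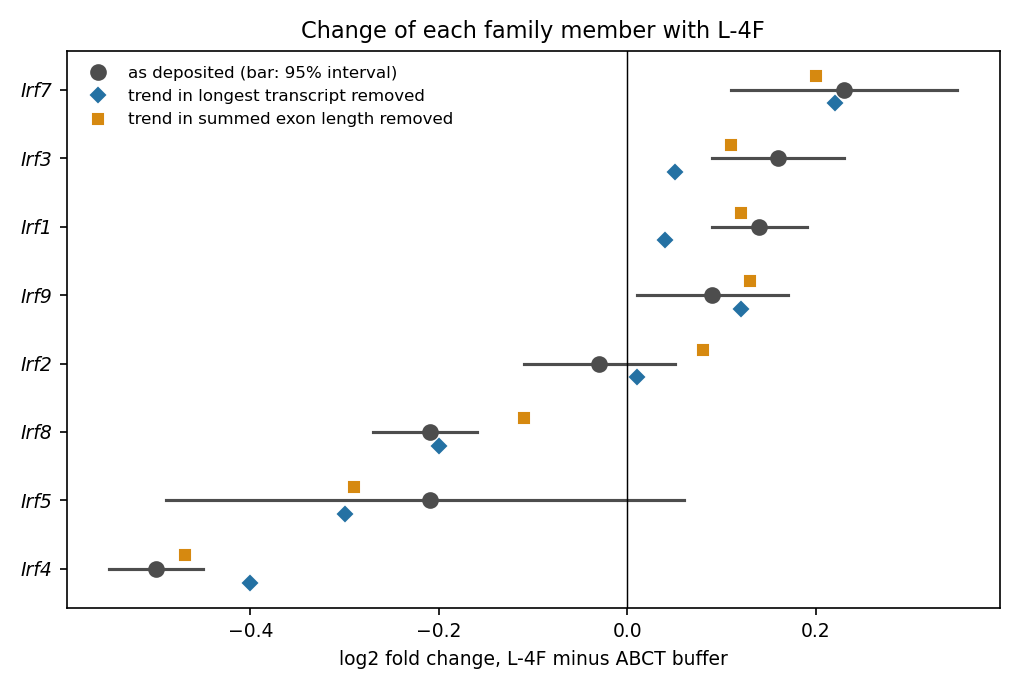
Log2 fold change of each member, L-4F minus ABCT buffer (x axis), from the deposited values with its 95% interval and after removal of 2 kinds of length trend. Irf4 at -0.50 stands farthest from 0, Irf1 and Irf3 move toward 0 with the trend in the longest transcript, and Irf8 does so with the trend in summed exon length.

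Within each library, Irf4 was then set against every other member, which removes the library factor. The log2 ratio of Irf4 to Irf7 was 3.31, 3.31 and 3.40 in buffer and 2.50, 2.67 and 2.65 with L-4F. This was the largest shift, -0.73 on the log2 scale (-0.63 with the length trend removed), and the libraries did not overlap.

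The ratio of Irf4 to the other interferon-linked members shifted in the same direction. This was bound to follow, since all these ratios hold the same Irf4 values and Irf4 changed more than any other member. The ratio shifted by -0.66 against Irf3, from 1.76 ± 0.0162 to 1.10 ± 0.00497 (SD, n = 3 each). Against Irf1 the shift was -0.64, from -0.52 ± 0.0436 to -1.17 ± 0.0133. Against Irf9 the shift was -0.59, from 1.77 ± 0.0243 to 1.18 ± 0.0713. With the length trend removed these shifts were -0.46, -0.45 and -0.53, again without overlap of the libraries.

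Relative to Irf8 the shift was smaller, -0.29 (-0.20 with the length trend removed), and both genes were lower with L-4F. The log2 ratio was -0.08, -0.06 and -0.02 in buffer and -0.38, -0.27 and -0.38 with L-4F, without overlap. The shift was -0.47 against Irf2. Against Irf5 it was -0.29 with overlapping libraries, and -0.11 with the length trend removed. Over the 7 ratios, 6 did not overlap between the groups and had a two-sided exact permutation p of 0.1, the smallest that 3 against 3 allows, with a Benjamini-Hochberg adjusted exact p of 0.117. For Irf5 the exact permutation p was 0.2. With 3 libraries a group this exact test cannot bring any of these ratios under 0.05. The 7 ratios share the values of Irf4 and are not 7 separate results.

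**Figure D3:**
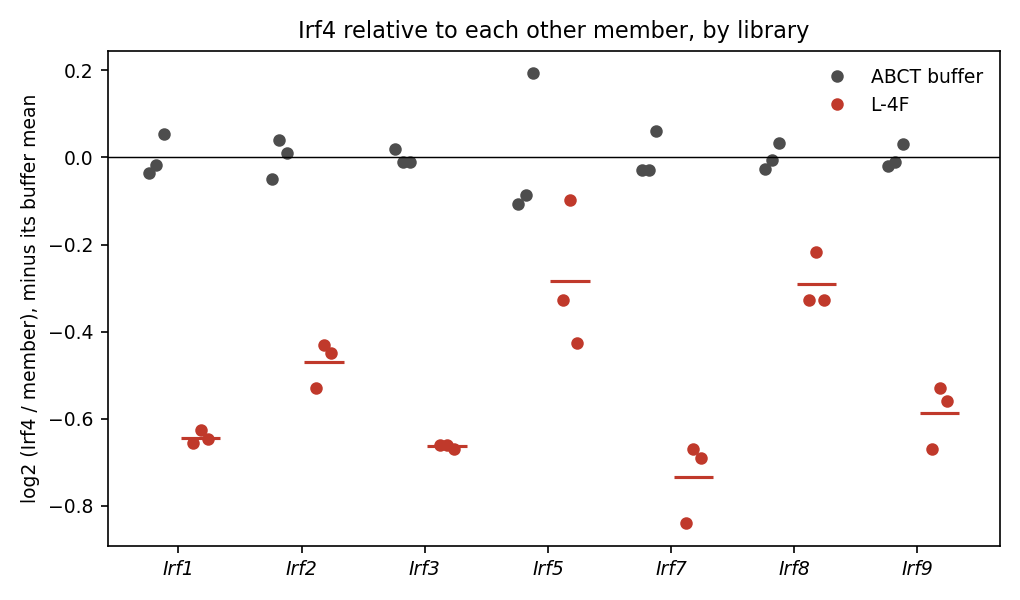
Log2 ratio of Irf4 to each other member in each library (y axis, minus the buffer mean of that ratio). Points are libraries and short red lines are L-4F means. All L-4F points lie below 0, and those for Irf5 overlap with buffer.

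The ratios above are of counts and carry the lengths of both genes, so only their shift between groups was read. To order the members by level, counts were taken per kilobase of the longest annotated transcript. In buffer the order was Irf1 (5870 normalized counts per kilobase), Irf8 (2612), Irf4 (1830), Irf3 (1268), Irf9 (661), Irf2 (622), Irf7 (266) and Irf5 (72.7). With L-4F, Irf4 and Irf3 exchanged places, Irf4 standing at 1294 ± 13.0 and Irf3 at 1416 ± 10.2 (SD, n = 3 each), and the other members kept theirs. No neighbours in the order overlapped in either group. The order depends on the length used. Per kilobase of summed exons Irf4 was second in both groups, at 1778 and 1258, above Irf8 at 1284 and 1108, and per kilobase of the longest protein-coding transcript Irf2 (988 in buffer) stood above Irf9 (864).

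**Figure D4:**
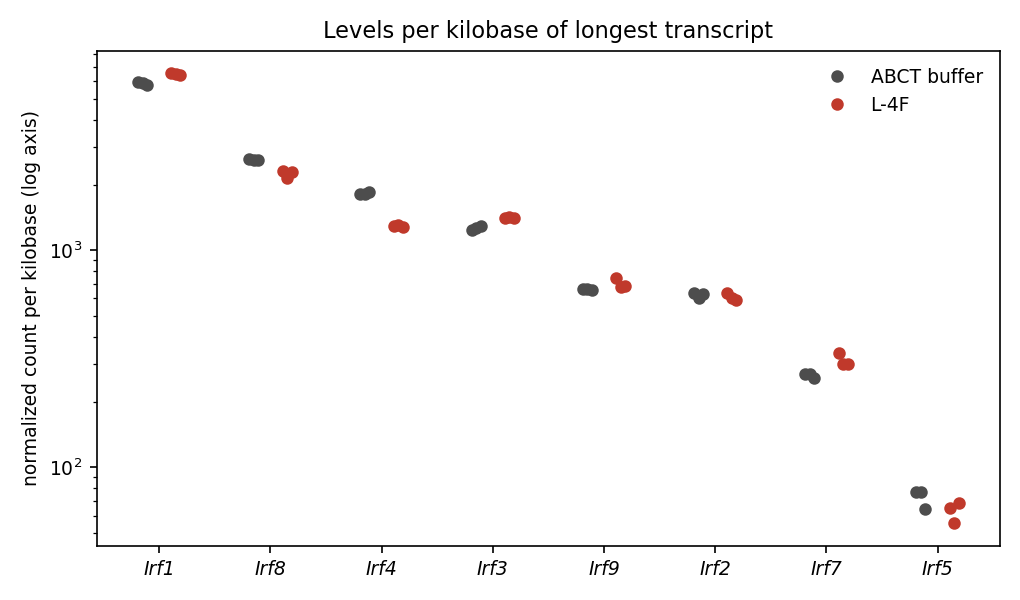
Normalized count per kilobase of the longest transcript (y axis, log scale) for the 8 members, ordered by their buffer level. Points are libraries. Irf4 lies above Irf3 in buffer and below it with L-4F.

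The partners that help these factors bind DNA and the genes upstream of Irf4 were described next, from lists drawn up with the family. Counts in every list are to be read beside the 38.2% of all tested genes that were called (18.4% higher, 19.7% lower) and the 26.4% called with the length trend removed. Of 19 cofactors and partners 8 fell and 1 rose (median -0.13, and 6 lower and 1 higher with the length trend removed). Ikzf3, a lymphoid zinc-finger factor, fell from 7258 ± 321 to 4730 ± 173, by 0.62 on the log2 scale (limma adjusted p = 9.23e-12), and its relative Ikzf1 fell by 0.18. Without the length trend these were -0.53 and -0.06, both still called. Stat3, which signals below cytokine receptors, fell by 0.22 and Ets1, a partner factor of T cells, by 0.11, and both lost their call with the length trend removed (-0.04 and 0.01). Batf, the AP-1 factor that binds DNA together with Irf4 in T cells, was at 663, 642 and 759 in buffer and at 845, 689 and 663 with L-4F. These overlapped, and Batf did not pass the test (0.09, limma adjusted p = 0.475). Spi1, the partner in myeloid and B cells, averaged 61.2 and 56.0 and Irf2bp2, a corepressor of Irf2, 1969 and 2121, and neither was called. After removal of the length trend Irf2bp2 was called higher (0.22, limma adjusted p = 0.000775) and Spi1 was not called.

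Of 21 genes of antigen receptor signalling 10 fell and 6 rose, with a median of -0.07, and the same counts were found with the length trend removed. Rel, an NF-kB subunit that induces Irf4, fell by 0.37, Malt1, which links the receptor to NF-kB, by 0.34, and Mtor, the growth kinase, by 0.52. Each of these 3 kept its call with the length trend removed, at -0.14, -0.15 and -0.24. Among those that rose were Lck, the first kinase of the receptor, and Lat, its adaptor, by 0.23 and 0.26 (0.14 and 0.15 with the length trend removed). These were chosen after their values were seen.

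Of 28 genes tied to Irf4 in activated T cells, 11 fell and 2 rose (median -0.11), and with the length trend removed 13 fell and 5 rose. Of all tested genes 19.7% fell and 18.4% rose. Il2ra, the high-affinity chain of the interleukin-2 receptor, fell from 25057 ± 131 to 20500 ± 346, by 0.29. Hk2, a hexokinase of glycolysis, fell by 0.48. Bach2, a repressor that restrains effector differentiation, fell by 0.49. With the length trend removed these 3 kept their call, at -0.22 for Il2ra, -0.34 for Hk2 and -0.20 for Bach2. Prdm1, a target of Irf4 in effector cells, was at 196, 193 and 200 in buffer and at 185, 138 and 196 with L-4F and did not pass the test (-0.20, limma adjusted p = 0.246).

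On the interferon side, of 15 receptor and JAK-STAT genes 6 rose and 6 fell, with a median of 0.07, and 7 rose and 3 fell with the length trend removed. Ifngr1, the interferon-gamma receptor chain, rose from 13525 ± 317 to 15867 ± 115, by 0.23, and Ifnar1, a type I interferon receptor chain, fell from 4402 ± 38.8 to 4088 ± 54.8, by 0.11. The kinases Tyk2 and Jak2 fell by 0.22 and 0.24, and Usp18, an interferon-induced brake on the type I receptor, rose by 0.42. Stat2, a partner of Irf9, fell by 0.16 (4006 ± 92.0 and 3584 ± 170). With the length trend removed Ifngr1 was at 0.13, Tyk2 at -0.12, Jak2 at -0.13 and Usp18 at 0.29, all still called, and Ifnar1 was at -0.07 and no longer called. Stat2 was then at -0.09 and also no longer called (limma adjusted p = 0.0549).

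Of 21 tested sensors, adaptors and kinases that activate Irf3, Irf5 and Irf7, 6 fell and 3 rose (median -0.03), and 3 fell and 2 rose with the length trend removed. With 38.2% of all tested genes called, these counts are a description only. Ikbkb, a kinase of NF-kB and Irf5, fell by 0.18, and Sting1, the adaptor of cytosolic DNA sensing, rose by 0.18, and both kept their call with the length trend removed (-0.08 and 0.10). Traf3 and Ikbke, both upstream of Irf3, fell by 0.23 and 0.18, and neither kept its call with the length trend removed (-0.01 and -0.02). The table held 2 rows of type I interferon genes, with at most 4 reads in any library. Ifng, the interferon-gamma gene, averaged 3832 and 3670 and did not pass the test (-0.06, limma adjusted p = 0.130), but was lower with the length trend removed (-0.25, limma adjusted p = 2.86e-06).

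Targets of the interferon-linked members were described last. Of 34 type I interferon-stimulated genes 15 rose and 6 fell (median 0.14), and 10 rose and 3 fell with the length trend removed (median 0.11). Ifi27l2a rose from 643 ± 4.59 to 990 ± 42.9, by 0.62, Ifi35 by 0.41 and Bst2, which tethers budding viruses, by 0.34. These 3 kept their call with the length trend removed, at 0.39, 0.24 and 0.12. Isg15, the ubiquitin-like modifier, was at 242, 234 and 203 in buffer and at 305, 256 and 316 with L-4F and rose by 0.37 (limma adjusted p = 0.0103), a call that was lost with the length trend removed (0.14). Parp14 went the other way and fell by 0.28, but was at -0.05 and no longer called with the length trend removed (limma adjusted p = 0.219). It was thus not among the 3 genes of the list that were then called lower.

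Of 27 tested targets of Irf1 and interferon-gamma 16 rose and 4 fell (median 0.14), and 15 rose and 2 fell with the length trend removed (median 0.10). H2-K1, a class I antigen-presenting molecule, rose from 58751 ± 324 to 72255 ± 1332, by 0.30 (limma adjusted p = 3.51e-12). The proteasome activator subunits Psme1 and Psme2 rose by 0.36 and 0.44, and Gbp7, a guanylate-binding protein of host defence, fell by 0.35. All 4 kept their call with the length trend removed, at 0.18, 0.25, 0.23 and -0.20. The median longest transcript was 2626 nt over the type I list and 2884 nt over the Irf1 list, beside 4172 nt over the genes tied to Irf4.

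**Figure D5:**
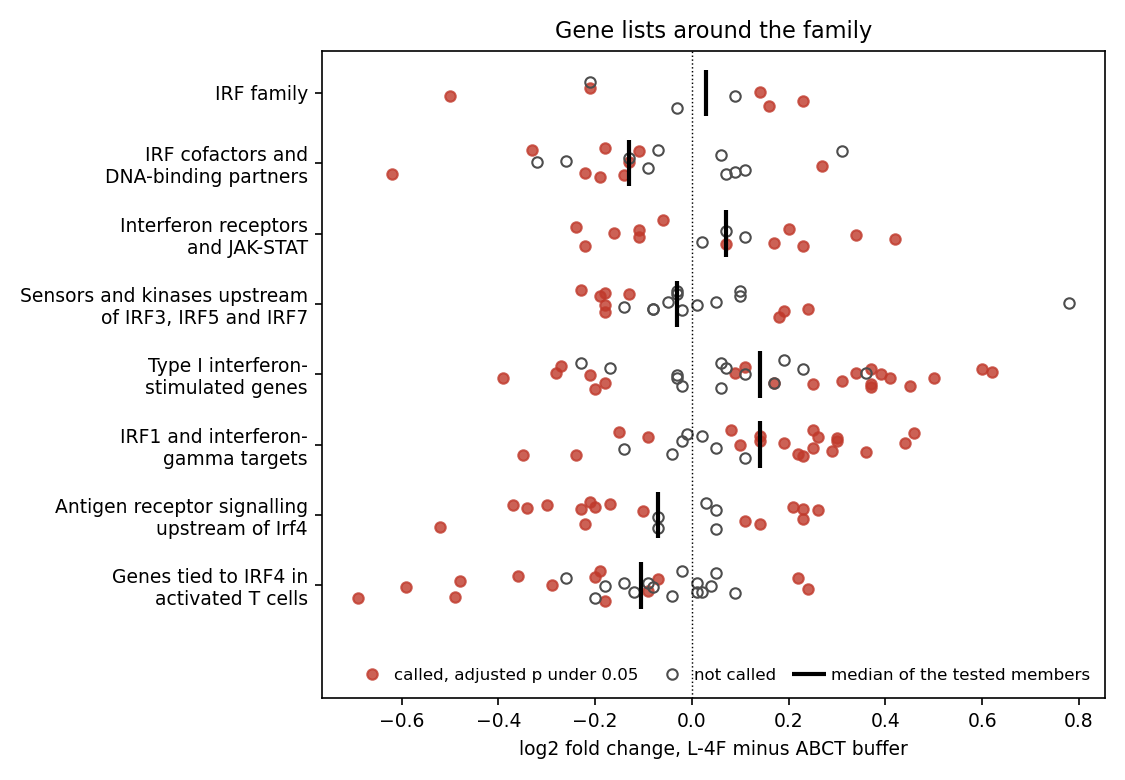
Log2 fold change, L-4F minus ABCT buffer (x axis), of every tested gene in the family and in 7 lists around it. Filled points were called, open points were not, and vertical lines are medians. The medians are 0.14 for both lists of interferon targets, -0.13 for the cofactors and -0.11 for the genes tied to Irf4.

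The genes whose values were most like those of Irf4 over the 6 libraries were Itpr1, Med1, Utp20, Dync1h1 and Fnip1. Likeness was the root-mean-square distance of the log2 values, each centred on its mean, and ran from 0.0128 for Itpr1 to 0.0249 for Fnip1. Their log2 fold changes were -0.48 to -0.51, near that of Irf4, as a small distance requires. All 5 have long transcripts, from 6255 nt for Fnip1 to 14342 nt for Dync1h1. With the length trend removed the nearest 5 were Bin2, Kmt2a, Ankhd1, Tagap and Med12, at distances of 0.0222 to 0.0375, and none of the first 5 was among them.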

How the data were processed

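RNA sequencing measured gene expression in 6 libraries, 3 with L-4F and 3 with ABCT Buffer, grouped by their titles. Strand-specific TruSeq libraries were made from total RNA, per the labels' protocols. StringTie 1.3.1c and FastQC (0.11.2 and 0.11.5) appear in the submitters' processing notes, with no role stated. Which aligner, genome build and annotation served is a point the sources used here leave unstated. The authors deposited log2 values for 24559 genes, which are log2 of a read count over a library factor (0.899 to 1.13), plus 1. The values themselves show this, since 100% of them returned whole reads within 0.01 read. The authors also deposited a log2 fold change, a p-value and an FDR for each gene, used only where named.

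A gene entered the fit where 3 or more libraries had a normalized count of 10 or more (14922 genes). The fit used limma 3.58.1 (R 4.3.3, statmod 1.5.0; trended, robust spread; group as the only term) with Benjamini-Hochberg adjustment over all of them. Every adjusted p for a gene is from this fit or its named alternative. All log2 fold changes are of normalized count + 1, a scale that understates changes of genes with few reads. Length trends were removed per library by loess (span 0.3), with lengths from GENCODE M21 on GRCm38 for 24513 genes, an annotation that may differ from the authors'. Irf4 ratios were tested by exact permutation over the 6 libraries. The fit and the removal of a length trend were also run on simulated reads, with 1 fixed spread and far fewer changed genes than were called here. That outcome is not given and is not used as support. Within a group the median chi-square between libraries was 2.17 to 2.73 times counting noise, and 7.5 to 9.01 times between groups, and no pair differed by less than counting noise.

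The members, gene lists and tests were chosen with earlier results of these data known. Named genes were all family members, from each list the 4 with the smallest adjusted p, a few genes fixed whatever their result, and for likeness the 5 genes nearest to Irf4 and the 2 nearest to each other called member. The listed symbols Mb21d1 and Tmem173 were found under their current names, and the marker Xcr1 was not found and so not used. The other settings were median centring, quantile normalization, total-read scaling, no filter, a filter at 10 CPM, a spread neither trended nor robust, limma-voom on the recovered reads, a pseudocount of 0.1, the replicate number as a block (also with the length trend removed), trends in transcript length, summed exon length and GC content removed, and each library left out. A trend in protein-coding transcript length was added after the data were seen, as were quantile normalization and left-out libraries for the ratios, the protein-coding length for the levels, and likeness with the length trend removed. Some genes that this rule takes are not reported here. A planned comparison of protein sequences was not made.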

Additional observations from a re-analysis of the deposited data

How the results depend on the processing

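Irf4, Irf7 and Irf8 kept their direction and their call under all 20 other settings, and 4 to 6 members were called. The 6 fits that left out a library gave -0.51 to -0.49 for Irf4 and -0.23 to -0.18 for Irf8. The 10 CPM filter left Irf5 untested. Over all genes, 5694 were called, 3767 with the trend in protein-coding transcript length removed and 3937 with that in the longest transcript.

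With the transcript length trend removed, Irf1 was at 0.04 (limma adjusted p = 0.137) and Irf3 at 0.05 (0.286), both no longer called, and Irf3 was at 0.07 (0.158) with the protein-coding length. Irf9 passed at 0.12 with the trend in the longest transcript removed, at 0.12 under quantile normalization and at 0.13 with summed exon length. With the protein-coding length it was at 0.08 and did not pass (limma adjusted p = 0.136). Over the left-out libraries it ranged from 0.05 to 0.11, passing without L-4F replicate 2. Irf2, not called, turned to 0.0020 under quantile normalization, 0.01 with transcript length and 0.08 with summed exon length.

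None of the 7 shifts of the Irf4 ratio reversed under 14 other settings. In the order Irf1, Irf2, Irf3, Irf5, Irf7, Irf8 and Irf9 they were -0.45, -0.42, -0.46, -0.11, -0.63, -0.20 and -0.53 with the transcript length trend removed, and -0.45, -0.31, -0.46, -0.11, -0.55, -0.16 and -0.47 with the protein-coding length. With summed exon length those that moved beyond 1 SD were -0.60 for Irf1, -0.56 for Irf2, -0.59 for Irf3 and -0.36 for Irf8. Quantile normalization gave -0.58 for Irf1 and -0.68 for Irf3, and removing the GC trend gave -0.63 for Irf3. The cause of these moves was not tested beyond the setting itself.

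Whether the replicate numbers in the titles pair the libraries could not be told. Same-numbered libraries correlated at 0.0511, 0.0111 and 0.109 in their deviations from the group means. Libraries with different numbers correlated at -0.0812 to 0.0305, and buffer replicate 2 was nearer to L-4F replicate 1 (0.0226) than to replicate 2. Correlations this small cannot decide the question. With the replicate block, 5521 genes were called and every member kept its call. With the replicate block and the transcript length trend removed, 3742 genes were called, Irf1 was at 0.04 (limma adjusted p = 0.135), Irf3 at 0.05 (0.295), Irf9 at 0.12 (0.0279) and Irf2 at 0.01, and the Irf4 shifts were the same as without the block. Irf5 had the fewest reads of the members (125 to 196 per library); the part of depth in its result was not tested.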

Other observations

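For the other called members, the 2 nearest genes over the 6 libraries were Nudt21 and Mcm6 for Irf1 (root-mean-square distances of 0.0113 and 0.0120 on the log2 scale), Pdia3 and Hat1 for Irf3 (0.0115 and 0.0128), 2510002D24Rik and H2-DMa for Irf7 (0.0135 and 0.0172), and Ccnk and Sp2 for Irf8 (0.0125 and 0.0155). H2-DMa, which loads peptides onto class II molecules, had a log2 fold change of 0.20. The replication helicase subunit Mcm6 had one of 0.14. Fold changes near those of the members follow from how these genes were picked.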
